A study of Homo sapiens with 6 samples.

Results

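The genes described here are 8 transcription factors of the adrenergic core circuit of neuroblastoma, PHOX2A, ISL1, HAND1, HAND2, GATA2, GATA3, TFAP2B and INSM2. They were taken by gene name from a count table of 58735 genes, and each name matched 1 row. All 8 passed the filter on low counts, which left 17269 genes for testing. INSM2 passed only through the control libraries described below. The sequenced RNA came from SY5Y, a neuroblastoma cell line of human origin, grown in DMEM/F12 with fetal bovine serum. In 3 libraries the cells carried DLX5 overexpression, DLX5 being a homeodomain protein of the distal-less group, and 3 libraries were labelled control. The construct, its promoter, the number of clones and what the control cells carried are not given in the sources used here. Nor is it stated that replicates came from separate cultures. The p-values therefore rest on the spread among these 6 libraries, and that spread may be technical.

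Neuroblastoma arises from sympathoadrenal precursors of the neural crest. In its adrenergic state a small set of transcription factors is known to bind one another's enhancers, keep one another expressed and drive the noradrenergic genes. This mutually reinforcing set is called the core regulatory circuit, and a mesenchymal state with other regulators is known as its alternative.

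All 8 factors were lower with DLX5 overexpression (edgeR quasi-likelihood test, Benjamini-Hochberg adjusted p under 0.05), and in each of them the 3 DLX5 libraries lay below all 3 controls. Across all tested genes 28.8% were called lower and in 30.8% the DLX5 libraries lay below all controls. The median log2 fold change of the 8 factors was -1.65, beside a median of -0.0018 over all tested genes. The factors were chosen with earlier results of these data known, so these comparisons describe them and are not independent support. INSM2, which passed the filter through the controls alone, fell the most, by 4.75 on the log2 scale, and ISL1 the least, by 0.92. Of the 8 factors, 6 fell by 2-fold or more, a size reached by 5.18% of all tested genes, and all 8 also passed a test against a 1.5-fold change, which 6.52% of all tested genes passed in this direction. INSM2 is counted in these figures, although the filter fixed its direction. The summed level of the 8 factors was 1682 ± 83.1 CPM (counts divided by library size, with TMM factors) in DLX5 libraries, against 4470 ± 273 CPM in controls (SD, n = 3 each), 2.66-fold lower. In bulk RNA, fewer cells that express a gene and less RNA per cell cannot be told apart.

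DLX5 itself stood at 1582, 1569 and 1677 CPM in the DLX5 libraries, against 12.4, 12.3 and 13.8 CPM in the controls, so each library matched its label. Libraries held between 14644077 and 16886026 reads assigned to genes. Of 10 markers of sympathetic or chromaffin cells all 10 were at 1 CPM or more in the controls. Among them TH, the first enzyme of catecholamine synthesis, named after its values were seen, was sparse, with 2 counts over the DLX5 libraries and 80 over the controls. Within the DLX5 libraries replicate 2 was the lowest for 7 of the 8 factors, and it had 9.13% mitochondrial reads, against 7.72% and 7.79% in the other DLX5 libraries. Among the controls replicate 1 was the highest for 7 of the 8, and it had the lowest mitochondrial share of the controls, 7.10%. Control replicate 2, the lowest for 6 of the 8, had 7.91%, and control replicate 3 had 7.43%. The part of these shares in the levels was not tested. All 8 factors were also called lower when DLX5 replicate 2 or control replicate 1 was left out.

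**Figure D1:**
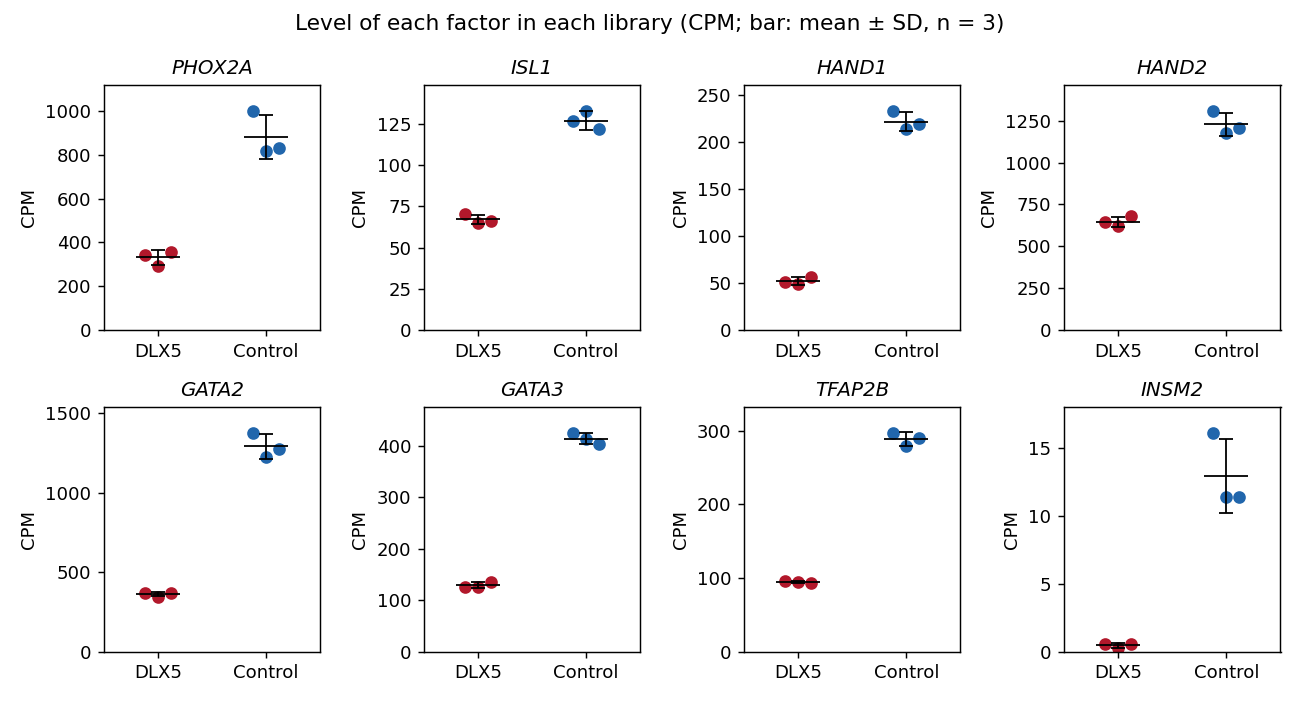
Level of each factor in CPM (linear axis from 0) in the 3 DLX5 overexpression libraries (red, left) and the 3 controls (blue, right), with the mean and SD of each group as black bars. The groups are apart in every panel, with the widest gap for its level in INSM2, at 0.469 CPM with DLX5 against 13.0 CPM in control, and the narrowest in ISL1 and HAND2.

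The sequence upstream of HAND1, HAND2 and ISL1 is shown because HAND1 and HAND2, close relatives, fell to unequal degrees, and because the stretch upstream of ISL1 holds the start of a divergent noncoding RNA gene. The stretches are from RefSeq (GRCh38.p14), written 5′ to 3′ on the gene's strand, and end where the annotated gene begins. Capitals mark TAATT, the core that DLX and other homeodomain proteins are known to bind, and GATAA, a core bound by GATA factors, on either strand. HAND1 is shown for chr5:154478265-154478477 (minus strand), HAND2 for chr4:173530230-173530479 (minus strand) and ISL1 for chr5:51383198-51383390 (plus strand).
HAND1: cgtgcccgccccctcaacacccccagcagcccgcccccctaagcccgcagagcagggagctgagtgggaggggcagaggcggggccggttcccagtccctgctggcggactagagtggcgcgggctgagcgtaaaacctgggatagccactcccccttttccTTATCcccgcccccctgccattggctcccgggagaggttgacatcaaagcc
HAND2: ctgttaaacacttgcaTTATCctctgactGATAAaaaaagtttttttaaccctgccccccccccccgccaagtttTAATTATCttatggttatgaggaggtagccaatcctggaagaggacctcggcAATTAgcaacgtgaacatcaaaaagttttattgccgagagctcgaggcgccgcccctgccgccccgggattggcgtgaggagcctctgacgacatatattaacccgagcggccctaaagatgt
ISL1: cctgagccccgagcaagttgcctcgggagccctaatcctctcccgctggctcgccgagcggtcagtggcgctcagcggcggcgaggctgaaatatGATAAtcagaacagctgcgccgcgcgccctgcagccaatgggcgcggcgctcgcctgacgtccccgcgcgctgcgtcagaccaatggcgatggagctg

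HAND2 held 3 matches to TAATT and 3 to GATAA, counted on both strands and with overlaps, since the run TAATTATC holds TAATT, its reverse complement AATTA and the reverse complement of GATAA. HAND1 held 1 match to GATAA and none to TAATT, and so did the ISL1 stretch shown. Among 35116 RefSeq promoter windows of 250 bases, 23.1% held TAATT, 20.4% held GATAA and 8.79% held both. As many as 3 matches were found in 3.59% of windows for TAATT and in 0.675% for GATAA. These shares were not matched for base composition. G and C made up 49.6% of the HAND2 window, against 67.2% for HAND1 and 65.2% for ISL1. Over the 250-base windows of all 8 factors, 14 windows because GATA2 and GATA3 have several starts, TAATT was found for HAND2 and TFAP2B, and GATAA for GATA3, HAND1, HAND2 and ISL1. The E-box core CANNTG, which HAND factors are known to bind with a partner, was found for GATA2, GATA3, HAND2 and ISL1, and the AP-2 core GCCNNNGGC for GATA2, GATA3, HAND1 and INSM2. Counted by window, as the background is, TAATT stood in 2 of the 14, GATAA in 4, CANNTG in 5 and GCCNNNGGC in 7. Among all windows CANNTG stood in 61.8% and GCCNNNGGC in 19.8%. The CANNTG matches of GATA2 and GATA3 lay only in windows inside the annotated gene. Likewise the TAATT match of TFAP2B and the GATAA match of GATA3 did not lie wholly upstream of the annotated gene. Nor did the GCCNNNGGC match of INSM2. A match describes letters in the window and is not a measured binding site.

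The homeobox factors PHOX2A and ISL1 are known to specify autonomic neurons, PHOX2A by switching on noradrenergic enzymes and ISL1, a LIM-homeodomain protein, by keeping sympathetic precursors on course. PHOX2A (ENSG00000165462, chromosome 11, 72239077 to 72245664, minus strand, GRCh38) had 342, 295 and 358 CPM in the DLX5 libraries, against 1001, 819 and 834 CPM in the controls. The groups were far apart, although within each group PHOX2A varied more than any other of the factors but INSM2, with a low DLX5 replicate 2 and a high control replicate 1. Its log2 fold change was -1.41 ± 0.08 (± SE; edgeR quasi-likelihood test, adjusted p = 8.27e-15). ISL1 (ENSG00000016082, chromosome 5, 51383391 to 51394738, plus strand) had 70.3, 64.7 and 66.2 CPM in DLX5 libraries, against 127, 133 and 122 CPM in controls. The libraries of each group lay close together, and ISL1 was at 52.8% of its control level (log2 fold change -0.92 ± 0.06, edgeR adjusted p = 1.44e-12).

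The bHLH factors HAND1 and HAND2 bind DNA as dimers with E proteins, and HAND2 is known as a factor that sympathetic neurons need for their noradrenergic traits. HAND1 (ENSG00000113196, chromosome 5, 154474972 to 154478264, minus strand) had 50.7, 48.7 and 56.8 CPM in the DLX5 libraries, against 233, 214 and 219 CPM in the controls. That left HAND1 at 23.5% of its control level (log2 fold change -2.09 ± 0.07, edgeR adjusted p = 1.37e-19). HAND2 (ENSG00000164107, chromosome 4, 173524969 to 173530229, minus strand) had 642, 619 and 679.8 CPM in DLX5 libraries, against 1307, 1178 and 1204 CPM in controls. HAND2 thus kept 52.6% of its control level (log2 fold change -0.93 ± 0.06, edgeR adjusted p = 6.69e-13).

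Because counts per gene length can be set against each other within a library, the balance of the HAND pair was compared directly. The HAND1 to HAND2 ratio of FPKM (fragments scaled by gene length and library size, the authors' deposited unit) was 0.164, 0.163 and 0.173 in the DLX5 libraries, against 0.369, 0.376 and 0.377 in the controls. The ratio was lower in every DLX5 library, by 1.17 on the log2 scale, and the gap was many times the spread within a group. A two-sided exact permutation test gave p = 0.1, the smallest that 3 libraries against 3 allow, and 0.117 as adjusted p over the 7 ratios tested.

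GATA2 and GATA3 are zinc finger factors that act downstream of the first sympathetic specifiers and are known to maintain noradrenergic neurons. GATA2 (ENSG00000179348, chromosome 3, 128479427 to 128493185, minus strand) had 367, 347 and 369 CPM in the DLX5 libraries, against 1376, 1223 and 1276 CPM in the controls. Its log2 fold change was -1.84 ± 0.06 (edgeR adjusted p = 3.65e-19). GATA3 (ENSG00000107485, chromosome 10, 8045378 to 8075203, plus strand) had 126, 126 and 135 CPM in DLX5 libraries, against 425, 413 and 403 CPM in controls. Both groups were tight, and the log2 fold change was -1.68 ± 0.06 (edgeR adjusted p = 1.12e-18). The GATA2 to GATA3 ratio of FPKM was 2.24, 2.13 and 2.10 in the DLX5 libraries and 2.50, 2.28 and 2.44 in the controls. The libraries did not overlap, but the difference of -0.16 on the log2 scale was small (two-sided exact permutation test, p = 0.1, adjusted p = 0.117 over 7 ratios), so the GATA pair fell nearly in step where the HAND pair did not.

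TFAP2B, an AP-2 family factor of the neural crest and the sympathetic lineage, was among the most even within each group. TFAP2B (ENSG00000008196, chromosome 6, 50818723 to 50847613, plus strand) had 95.7, 94.98 and 92.9 CPM in the DLX5 libraries, against 297, 279 and 290.3 CPM in the controls. It stood at 32.8% of its control level (log2 fold change -1.61 ± 0.06, edgeR adjusted p = 2.27e-18). INSM2, a zinc finger factor related to the neuroendocrine regulator INSM1, was the least abundant and fell furthest. INSM2 (ENSG00000168348, chromosome 14, 35534042 to 35537054, plus strand) had 10, 4 and 9 counts in the DLX5 libraries, against 241, 190 and 188 counts in the controls. The log2 fold change was -4.75 ± 0.25 (edgeR adjusted p = 3.63e-15), at rank 8 among the falls of all tested genes and rank 1 among those with a transcription factor family in the files. A gene at such counts with DLX5 could be tested only if high in control, so its direction was fixed by the filter. The adjusted p and the ranks of INSM2 therefore describe it and are not support. With 23 counts over the DLX5 libraries the fit gives INSM2 an error below that of counting alone. The ratio of scaled counts was 0.0368 with an exact 95% counting interval of 0.0231 to 0.0557, which covers counting error only. On log2(FPKM + 1) values the change was -2.18, since the pseudocount exceeds the level of INSM2 in the DLX5 libraries.

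**Figure D2:**
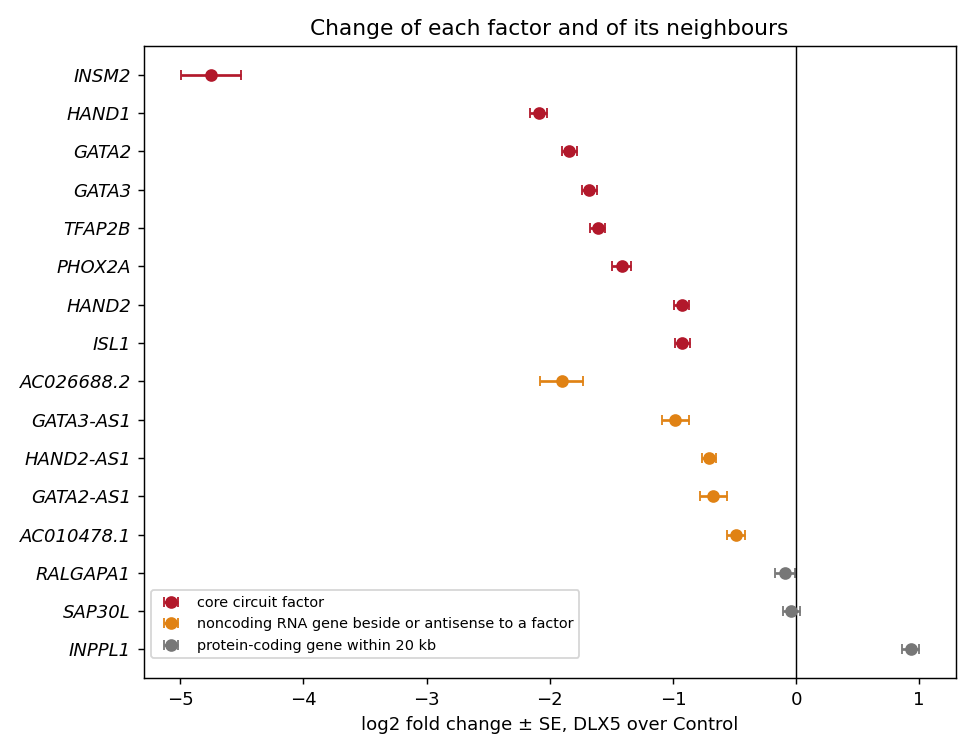
Log2 fold change (DLX5 overexpression over control, bars ± SE) of the 8 factors (red, in order of change), of the tested noncoding RNA genes beside or antisense to them (orange) and of the tested protein-coding genes within 20000 bases (grey). The factors run from -4.75 for INSM2 to -0.92 for ISL1, and the noncoding genes lie left of 0 too, whereas RALGAPA1 and SAP30L sit near 0 and INPPL1 at 0.93.

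In order of change, some neighbours among the factors could not be separated. For INSM2 against HAND1, HAND1 against GATA2, GATA2 against GATA3, and PHOX2A against HAND2, the library ratios of the members did not overlap between groups. Those of GATA3 against TFAP2B, TFAP2B against PHOX2A, and HAND2 against ISL1 did. The factors thus formed steps, with INSM2 apart, then HAND1, then GATA2, then GATA3, TFAP2B and PHOX2A, and last HAND2 with ISL1. Because the order was set by the same values, these overlaps carry no test.

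The unequal falls altered the balance within the set, as judged by FPKM, which allows genes of different length to be compared. PHOX2A had 184 ± 17.8 FPKM in the DLX5 libraries and 492 ± 56.3 FPKM in the controls (SD, n = 3). HAND2 had 178 ± 8.04 FPKM in the DLX5 libraries and 339 ± 18.9 FPKM in the controls. PHOX2A and HAND2 therefore overlapped with DLX5, while in the controls PHOX2A was above HAND2 in every library. The share of HAND2 in the summed FPKM of the 8 factors was 32.5% ± 0.651 in the DLX5 libraries and 23.2% ± 0.330 in the controls, and that of HAND1 was 5.42% ± 0.195 in the DLX5 libraries and 8.70% ± 0.222 in the controls. The share of PHOX2A hardly differed, at 33.6% ± 1.43 with DLX5 and 33.7% ± 1.46 in control. GATA2 made up 14.7% ± 0.409 of the sum in the DLX5 libraries and 19.7% ± 0.337 in the controls. HAND1, above or level with GATA3 in the controls at 127 ± 5.74 against 119 ± 3.11 FPKM, was below GATA3 in the DLX5 libraries, at 29.7 ± 2.33 against 37.2 ± 1.49 FPKM. Likewise TFAP2B and ISL1 overlapped in the controls, whereas TFAP2B was below ISL1 in all DLX5 libraries, at 15.2 ± 0.252 against 23.1 ± 0.950 FPKM.

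In the controls all of these factors but INSM2 were among the most abundant transcription factor messages. The files give a transcription factor family for 1553 genes, a broad class that includes other nucleic acid binding proteins such as YBX1. Ranked by mean FPKM among these, 2 of the 10 highest in the DLX5 libraries were members of the set, against 5 of the 10 highest in the controls. PHOX2A was at rank 3 with DLX5 and rank 2 in control, and HAND2 at rank 4 with DLX5 and rank 3 in control, so both stayed near the top in spite of their fall. GATA2 was at rank 12 with DLX5 and rank 4 in control, HAND1 at rank 55 with DLX5 and rank 8 in control, and GATA3 at rank 35 with DLX5 and rank 9 in control. Lower down, ISL1 was at rank 83 with DLX5 and rank 41 in control, TFAP2B at rank 156 with DLX5 and rank 38 in control, and INSM2 at rank 1158 with DLX5 and rank 506 in control. DLX5 itself was the first of the ranking in its libraries, at 913 ± 31.7 FPKM, which is above the summed 548 ± 31.1 FPKM of the 8 factors there. Of the 1153 genes with a family that could be tested, 307 fell (26.6%) and 344 rose, with a median log2 fold change of 0.02.

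**Figure D3:**
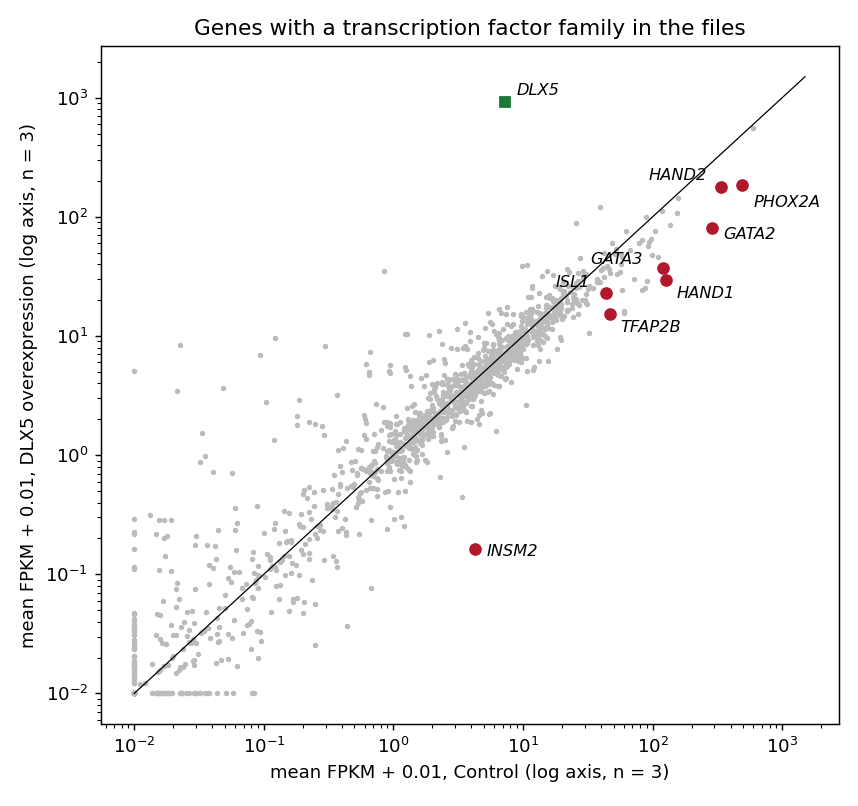
Mean FPKM + 0.01 of each gene with a transcription factor family in the files, DLX5 overexpression (vertical, log axis) against control (horizontal, log axis), with equality as a line. The 8 factors (red) lie below the line, 7 of them at the abundant end, INSM2 lies furthest below, and DLX5 (green square) is the highest gene in its libraries.

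Several of the factors have noncoding RNA genes that overlap them or lie nearby. Within 20000 bases of the 8 genes lie 17 other annotated genes, of which 8 could be tested, 5 of them noncoding. All 5 noncoding genes fell, a number too small to set against the 28.8% of all tested genes called lower. HAND2-AS1, which overlaps HAND2 on the other strand, had 325 ± 7.72 CPM in DLX5 libraries, against 531 ± 19.8 CPM in controls (log2 fold change -0.71 ± 0.06, edgeR adjusted p = 4.68e-11). GATA2-AS1 had 12.1 ± 0.675 CPM with DLX5, against 19.3 ± 2.21 CPM in control (log2 fold change -0.67 ± 0.11), and GATA3-AS1 15.4 ± 2.68 CPM with DLX5, against 30.5 ± 3.85 CPM in control (-0.98 ± 0.11). AC010478.1, a divergent gene whose start lies 59 bases from that of ISL1, had 40.2 ± 0.990 CPM with DLX5, against 56.4 ± 2.34 CPM in control (-0.49 ± 0.07), and AC026688.2, upstream of HAND1 on the same strand, had 2.30 ± 0.418 CPM with DLX5, against 8.58 ± 0.524 CPM in control (-1.90 ± 0.18). The last 2 were looked at after their values were seen. Of the protein-coding neighbours, also looked at after their values were seen, SAP30L beside HAND1 and RALGAPA1 beside INSM2 did not pass, at -0.04 ± 0.07 and -0.09 ± 0.08, and INPPL1, whose end overlaps that of PHOX2A by 29 bases, rose by 0.93 ± 0.07. AL390294.1, inside GATA3, had 4 counts in the DLX5 libraries and 3 in the controls and was not tested.

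The count ratio of a factor to its noncoding partner was lower with DLX5 in every library for 4 of the 5 pairs. Among levels of all tested genes, 30.8% lay lower and 31.7% higher without overlap between groups. No such share was worked out for ratios. As the factors were chosen with earlier results known, a lower ratio to a gene that fell less restates their falls. It is not independent support. GATA2 had 29.7, 30.5 and 29.2 times the counts of GATA2-AS1 in the DLX5 libraries, against 66.5, 72.9 and 62.2 times in the controls. The ratio of GATA3 to GATA3-AS1 was 8.51 ± 1.23 in the DLX5 libraries and 13.7 ± 1.39 in the controls (SD, n = 3), and that of ISL1 to AC010478.1 was 1.67 ± 0.0800 in the DLX5 libraries and 2.26 ± 0.150 in the controls. Of these 4 pairs HAND2 to HAND2-AS1 differed least, at 1.99 ± 0.105 in the DLX5 libraries and 2.32 ± 0.202 in the controls. In these 4 pairs the groups did not overlap, and each gave p = 0.1 in a two-sided exact permutation test, the smallest possible (adjusted p = 0.117 over 7 ratios). HAND1 against AC026688.2 did overlap (23.3 ± 5.398 with DLX5 and 26.0 ± 2.82 in control, exact p = 0.4, adjusted p = 0.4). The comparisons with partners were added after the values were seen. HAND2 shares 867 exonic bases (24.1% of its own) with HAND2-AS1, and without a stated strand setting reads of this stretch cannot be told apart. GATA2 and GATA3 share no exonic bases with their antisense genes, but the gene spans overlap, by 3974 and 3035 bases. Without a strand setting, reads from introns of GATA2 or GATA3 could count toward the antisense gene. Their part in these ratios was not tested.

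**Figure D4:**
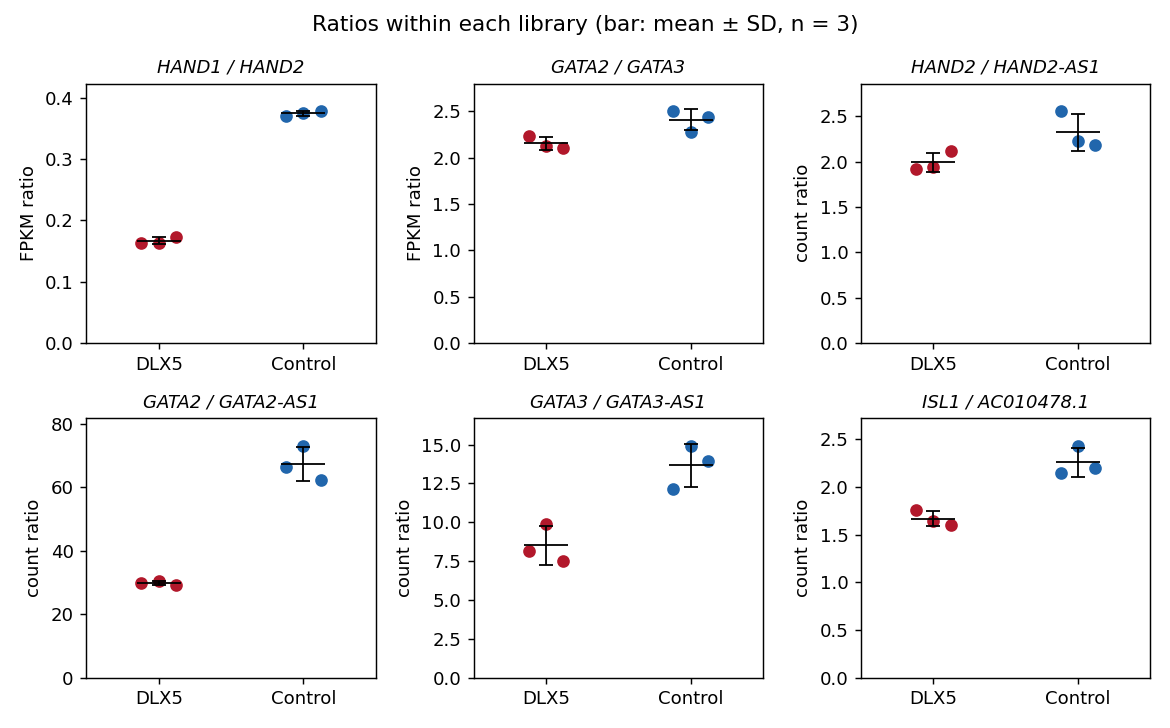
Ratios within each library, DLX5 overexpression (red, left) and control (blue, right), as FPKM ratios for the HAND1/HAND2 and GATA2/GATA3 pairs and as count ratios for a factor over its antisense or divergent partner, with mean and SD as black bars on axes from 0. The HAND1/HAND2 ratio is 0.167 with DLX5 against 0.374 in control and the GATA2/GATA2-AS1 ratio 29.8 with DLX5 against 67.2 in control, while the GATA2/GATA3 ratio lies at 2.16 with DLX5 against 2.41 in control.

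Of 12 listed paralogs of the factors 4 could be tested, and 2 of these fell, 0 rose and 2 did not pass (median -0.51), a number too small to set against the 28.8% of all tested genes called lower. GATA4, a cardiac and endodermal GATA factor, had 44.1 ± 2.65 CPM in DLX5 libraries, against 86.0 ± 3.99 CPM in controls and fell by 0.96 ± 0.07 on the log2 scale. ISL2, a LIM-homeodomain relative of ISL1, was at 8.82 ± 0.255 CPM with DLX5, against 8.08 ± 0.748 CPM in control (log2 fold change 0.13 ± 0.13, edgeR adjusted p = 0.430), and the AP-2 gene TFAP2E at 2.41 ± 0.187 CPM with DLX5, against 2.50 ± 0.545 CPM in control (-0.06 ± 0.24, adjusted p = 0.847). INSM1, the paralog of INSM2, had 1 count over the DLX5 libraries and 7 over the controls and was not tested, and GATA6 and TFAP2C had 0 counts in all libraries.

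Other genes of the programme were taken from lists, with 28.8% of all tested genes called lower and 29.8% called higher as background. Of 27 further adrenergic regulators 24 could be tested, and 15 fell, 7 rose and 2 did not pass (median -0.29). TBX2, a T-box factor of the circuit, had 98.8 ± 11.04 CPM with DLX5, against 365 ± 29.7 CPM in control (-1.88 ± 0.07), and the homeobox gene SIX3 had 61.9 ± 3.07 CPM with DLX5, against 209 ± 19.3 CPM in control (-1.76 ± 0.07). EBF3, a COE family factor, rose, with 44.4 ± 0.857 CPM in the DLX5 libraries against 0.523 ± 0.0692 CPM in the controls, and MYCN, named after its values were seen, rose by 2.45 ± 0.11. Of 24 partners of HAND and GATA proteins 20 could be tested, and 9 fell, 5 rose and 6 did not pass (median -0.16). Within the LIM-only adaptors, which bridge GATA and bHLH proteins, LMO4 rose by 2.37 ± 0.08, to 118 CPM with DLX5 against 22.8 CPM in control, whereas LMO1 and LMO3 fell by 2.05 ± 0.09 and 1.95 ± 0.11. ID2, an inhibitor of bHLH dimers, fell by 1.27 ± 0.06. LMO1, LMO3 and TCF4 stand in both lists.

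Of 22 adrenergic effector genes, all tested, 18 fell, 1 rose and 3 did not pass (median -1.41), with CHGA, CYB561, DDC and DBH at log2 fold changes of -3.76 ± 0.08, -2.33 ± 0.06, -2.38 ± 0.07 and -1.98 ± 0.06. The gene that rose was GFRA2, a receptor for neurturin, by 0.86 ± 0.13. The first-named genes are products of the noradrenergic programme, CHGA a granule protein, CYB561 an electron carrier of the granule membrane, and DDC and DBH enzymes of noradrenaline synthesis. Of 24 regulators of the mesenchymal state 22 could be tested, and 20 rose, 1 fell and 1 did not pass (median 1.04). The Hippo coactivators WWTR1 and YAP1 and the receptor NOTCH3 rose by 2.30 ± 0.09, 2.15 ± 0.09 and 1.56 ± 0.07. The gene that fell was RUNX2, a skeletal RUNX factor, by 1.53 ± 0.28, at under 3 CPM in both groups. PRRX1, a homeobox gene known for its part in that state, had 0 counts in the DLX5 libraries and 8 in the controls.

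**Figure D5:**
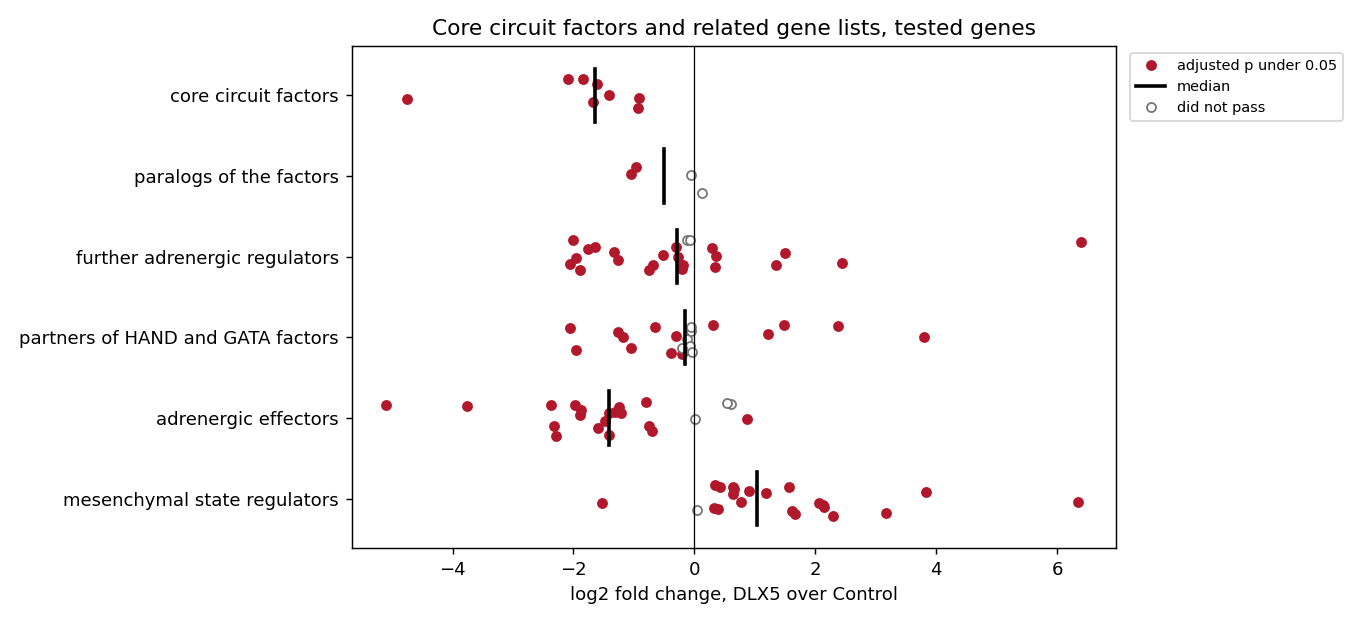
Log2 fold change (DLX5 overexpression over control, horizontal) of each tested gene of the core circuit factors and of related lists, filled where the adjusted p was under 0.05 and open otherwise, with the median as a bar. The 8 core circuit factors all lie left of 0 with a median of -1.65, the effectors have a median of -1.41, the further regulators spread to both sides, and the mesenchymal regulators have a median of 1.04.

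Markers of cell types were read beside these falls, with 28.8% of all tested genes called lower and 29.8% called higher as background. The 10 sympathetic or chromaffin markers summed to 894 to 932 CPM in DLX5 libraries, against 3231 to 3397 CPM in controls, and all 10 fell. All 10 also stand among the 22 adrenergic effectors above, so their falls are not a separate result. The effectors that rose or did not pass are not among these 10. Of 10 fibroblast or mesenchymal markers 9 were tested and all 9 rose, with sums of 6811 to 7077 CPM in DLX5 libraries, against 1513 to 1567 CPM in controls, where 9 of the 10 were already at 1 CPM or more. Of 7 epithelial markers 5 rose, 1 fell and 1 did not pass, with KRT18, named after its values were seen, at 312 CPM with DLX5, against 14.5 CPM in control, and with sums of 363 to 385 CPM with DLX5 and 20.4 to 24.1 CPM in control. Schwann cell or glia markers summed to 15.2 to 15.3 CPM with DLX5 and 4.93 to 7.01 CPM in control, with 3 of 5 tested higher, 1 lower and CDH19 at 0 in both groups, and endothelial and blood markers stayed at 3.85 CPM or less, with 1 of 4 tested higher. FOXD3, PRRX1 and PTPRC were at 0 in the DLX5 libraries and CDH5 in the controls. The part of these markers in the falls was not tested.

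Genes most like the factors in profile were sought among 11731 protein-coding genes, by the root-mean-square distance of centred log2 CPM over the 6 libraries. Nearest to the mean of the 8 factors were LFNG, a modifier of Notch receptors, at a distance of 0.0305, TBX2 at 0.0417, the homeobox gene TLX2 at 0.0666, the zinc finger gene SNAI1 at 0.0670 and the nicotinic receptor subunit CHRNB4 at 0.0684. For single factors the nearest genes were STMN3 for PHOX2A, ADGRG1 for ISL1, GAL for HAND1, VAV2 for HAND2, LFNG for GATA2, DLK1 for GATA3 and CHRNB2 for TFAP2B, at distances of 0.0191 to 0.0511. INSM2 had no close match, its nearest gene being BMP7 at 0.364. With only 2 groups this distance mostly measures how alike the sizes of the changes were.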

How the data were processed

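Libraries were made from total RNA with the NEBNext Ultra kit, per the labels' protocols. Reads were aligned with HISAT2 2.0.5 and counted with featureCounts 1.5.0-p3, per the submitters' processing notes, and no strand setting was given in the sources used here. The authors deposited counts per gene in one file and FPKM per gene in another. The notes name hg19, but all 58735 genes in the files have the coordinates of GENCODE 29 (GRCh38), which are used here. The deposited FPKM were used for levels between genes and for ratios.

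Counts were tested with edgeR 4.0.16 (TMM factors, filterByExpr, quasi-likelihood F test, R 4.3.3), with Benjamini-Hochberg adjustment over all 17269 tested genes and a threshold of 0.05. The SE of a log2 fold change is its size divided by the square root of F. Ratios within a library were tested with exact permutation tests (scipy 1.17.1). The code was tested on simulated data. Libraries held 14644077 to 16886026 counts, and replicates differed by more than sampling noise (chi-square per degree of freedom 2.23 to 5.07), so no library was treated as a repeat deposit of another. This does not show that they came from separate cultures. Alternatives were other scalings, filters, DESeq2 1.42.0, limma 3.58.1 and leaving out each library. Members and lists were chosen with earlier results of these data known. Named were all members, genes overlapping them or named as their antisense, tested paralogs, up to 4 genes of each other list by smallest adjusted p, and nearest profiles. A few genes named by this rule are not reported here.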

Additional observations from a re-analysis of the deposited data

How the results depend on the processing

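Each of the 8 factors stayed lower and past its threshold under all 19 alternatives, with log2 fold changes of -1.48 to -1.32 for PHOX2A, -2.16 to -2.04 for HAND1, -0.99 to -0.88 for HAND2, -1.91 to -1.80 for GATA2, -1.75 to -1.66 for GATA3, -0.99 to -0.89 for ISL1, -1.68 to -1.55 for TFAP2B and -4.96 to -2.18 for INSM2, whose smallest value comes from the pseudocount of 1 FPKM. A test against a 1.5-fold change called 3284 genes (2158 higher, 1126 lower) instead of 10121 (5152 higher, 4969 lower), by its construction. Leaving out 1 library at a time gave 9277 to 9841 called genes (4837 to 5061 higher, 4440 to 4780 lower), log2 differences of -1.20 to -1.15 for the HAND1 to HAND2 ratio and of -0.20 to -0.13 for the GATA2 to GATA3 ratio. Same-numbered libraries did not deviate together (correlations 0.06, 0.24 and -0.15 over 12627 genes), so the numbers were not taken as pairs; with the replicate block 10224 genes were called (5208 higher, 5016 lower), all 8 factors among them, and within-block permutation gave p = 0.25 for both ratios, the smallest it allows. DESeq2 called 8946 of 23935 genes. The balance of calls over all genes turned to 4555 higher and 5762 lower with no scaling factor, where the median of all genes was -0.07, and to 4858 higher and 5369 lower with upper-quartile factors; all 8 factors were lower under both. At 23 counts over the DLX5 libraries, counting error limits the value of INSM2.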

Other observations

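The places that the circuit factors left among the 10 transcription factor genes of highest FPKM were looked at after the values were seen. HIF1A, the oxygen-regulated subunit of hypoxia-inducible factor, was at rank 6 in the DLX5 libraries and rank 46 in the controls, with 122 ± 10.8 FPKM with DLX5 and 39.5 ± 2.72 FPKM in control (SD, n = 3; log2 fold change 1.63 ± 0.07, edgeR adjusted p = 3.37e-17). ZFP36L2, an RNA-binding zinc finger protein that promotes mRNA decay, was at rank 10 in the DLX5 libraries and rank 72 in the controls, with 89.7 ± 3.49 FPKM with DLX5 and 25.8 ± 1.49 FPKM in control (1.80 ± 0.06, adjusted p = 7.15e-19). YBX1, a cold-shock domain protein, did not pass the test, at 557 ± 20.4 FPKM with DLX5 and 593 ± 23.3 FPKM in control (adjusted p = 0.192).

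Family counts are read beside the 28.8% of all tested genes called lower and the 29.8% called higher. By the family given in the files, 20 of 59 tested bHLH genes were lower (33.9%) and 16 higher (27.1%), near those shares, with HAND1 and HAND2 among the lower ones. Of 10 tested GATA zinc finger genes 5 were lower and 1 higher, and the 5 include GATA2 and GATA3. Of 78 tested homeobox genes 27 were lower (34.6%), PHOX2A and ISL1 among them, and 33 higher (42.3%), the overexpressed DLX5 among them.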
